A study of Apostichopus japonicus with 12 samples.

Results

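Warming alone was studied in intestines of Apostichopus japonicus, a sea cucumber, by comparing 3 libraries from animals held for 6 h at 26 °C and 7 mg/L dissolved oxygen with 3 control libraries from animals held for 6 h at 18 °C. The comparison covered every gene model with at least 1 FPKM (fragments per kilobase of model, scaled by library size) in at least 3 of the 12 libraries of the series. This left 15615 of the 26461 models in the deposited table, of which 9167 carried a gene symbol taken from the best match in another species. The other 6 libraries came from animals at 18 °C and 3 mg/L oxygen (low oxygen) and from animals at 26 °C and 3 mg/L oxygen (combined), 3 of each. They served here to estimate the spread and as points of reference.

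How much oxygen the control water held is uncertain, because the series text gives 3 mg/L, the level of the low oxygen group, and the groups were therefore used as labelled. A difference in oxygen between the high temperature and control tanks cannot be told apart from the difference in temperature. The animals weighed about 100 g and RNA was extracted from single individuals. The p-values measure the spread between these animals and their libraries. Whether replicate animals had separate tanks is not labelled. If the animals of a group shared a tank, tank and treatment cannot be told apart. The tissue is whole intestine, in which fewer cells of a type and less RNA per cell cannot be told apart.

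Heat unfolds proteins, and cells respond by making chaperones. In the cytosol, HSP70 with its DnaJ partners and HSP110 binds unfolded chains, HSP90 with its co-chaperones finishes the folding of many signalling proteins, and small heat shock proteins keep unfolded proteins from clumping. Secreted and membrane proteins are folded in the endoplasmic reticulum (ER), which has chaperones of its own, among them BiP, endoplasmin, calreticulin and the protein disulfide isomerases. The intestine also makes and burns fatty acids and secretes digestive enzymes, and genes of both kinds were followed.

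The 6 libraries compared held from 8.147 to 10.28 in units of 1e6 fragments, a small range. Pearson r between replicate libraries, taken across genes that are no independent replicates, was 0.754 to 0.855 among controls and 0.812 to 0.838 among warmed libraries. Pairs across these groups gave 0.707 to 0.845. Control 3 stood somewhat apart, with 0.754 against control 1. The median spread of a gene within a group, as the SD of log2(FPKM + 1), was 0.50 in the control, 0.46 at high temperature and 0.41 at low oxygen, but 0.71 in the combined group. The main test used all 4 groups for the spread, and the same fit without the combined libraries is given beside it.

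Genes of protein folding led the response to warm water, with 6 of the 7 models that rose coding for chaperones, their partners or other folding factors. In the limma fit on log2(FPKM + 1), 7 models rose (0.0448% of those tested) and 4 fell (0.0256%) at an adjusted p under 0.05. In the fit without the combined libraries, 20 rose (0.128%) and 16 fell (0.102%), and these included all 11 models of the main fit. The 20 comprised 2 unnamed models, LMF1, an ER factor that matures lipases, and otherwise chaperones, co-chaperones and folding factors. The 16 included 4 enzymes of fatty acid synthesis. At an unadjusted p under 0.05, 371 models were higher (2.38%) and 656 lower (4.2%). The main counts changed when single libraries were left out, whichever group they came from. Without control 2 or control 3, 0 models rose and 2 or 1 fell. Without high temperature 1 or 3, none passed, and without high temperature 2, 0 rose and 1 fell. Without control 1, 7 rose and 9 fell. With the combined group also left out, a fit chosen after seeing the data, leaving out any 1 of the 6 libraries gave 9 to 12 models that rose and 4 to 14 that fell.

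**Figure D1:**
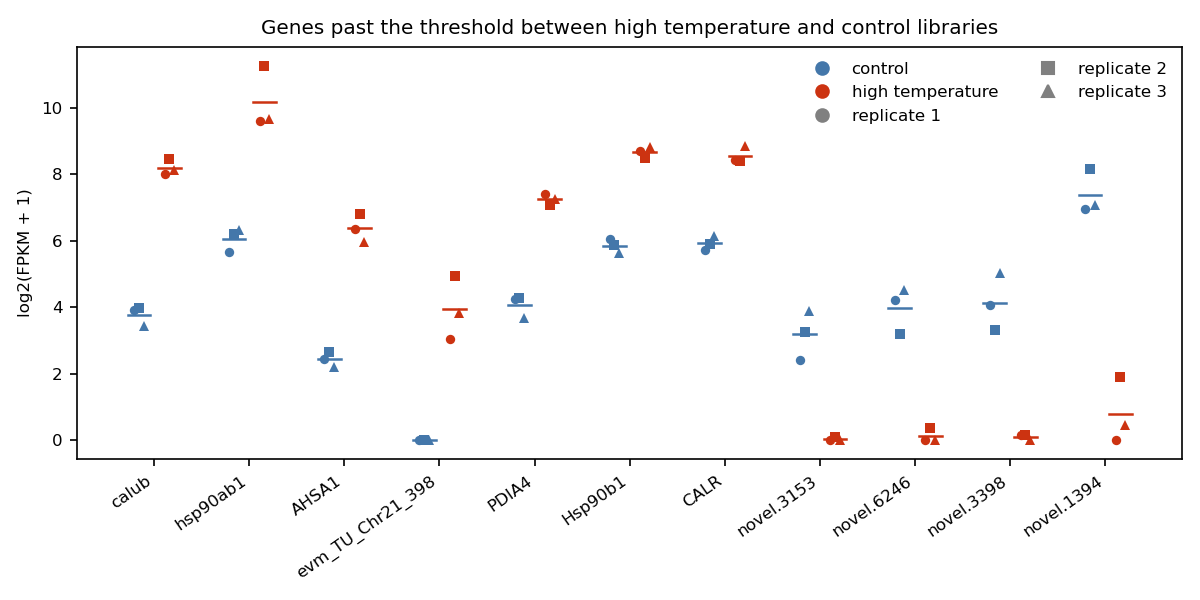
Levels of the 11 models past the threshold, as log2(FPKM + 1), in the 3 control libraries (blue) and 3 high temperature libraries (red), with a bar at each group's mean and a marker shape for each replicate. In every model the groups are separate, and HSP90-beta shows 1 warmed library, at 2455 FPKM, far above the other warmed libraries.

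Calumenin-B (calub, evm_TU_Chr14_573), which binds calcium inside the secretory pathway, had the highest fold among the named genes that rose. It measured 14.2, 14.6 and 9.70 FPKM in controls 1 to 3, and 255, 351 and 278 FPKM in high temperature libraries 1 to 3. The warmed libraries lay close to each other and all far above the controls, and the mean level was 23-fold higher (log2 difference 4.43, SE 0.57, limma adjusted p = 0.0125). The gene lies on chromosome 14 from 26646582 to 26662246, on the minus strand, in 6 exons. In low oxygen it stayed near the control, at 14.6, 13.4 and 7.59 FPKM. It was the only model of all 15615 that rose in high temperature against low oxygen (0.0064% of those tested, log2 4.56, adjusted p = 0.0453), a comparison that shares no library with the control and that 0 models passed in the other direction.

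Calreticulin (CALR, evm_TU_Chr7_293, chromosome 7 from 9880128 to 9889205, 9 exons), a lectin chaperone that holds newly made glycoproteins, measured 52.1, 59.0 and 69.9 FPKM in the control. It measured 341, 335 and 456 FPKM in warm water, so that the lowest warmed library was several times the highest control. It rose by 2.62 on the log2 scale (SE 0.32, limma adjusted p = 0.0125). Its level in combined libraries was lower than in warm water alone in each library, at 172, 204 and 188 FPKM, but this difference missed the threshold (log2 -0.99, SE 0.32, adjusted p = 0.518).

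PDIA4 (evm_TU_Chr20_140, chromosome 20 from 3961732 to 3979851, 10 exons), a disulfide isomerase of the ER, measured 17.8, 18.5 and 11.7 FPKM in the control and 169, 134 and 153 FPKM in warm water. Endoplasmin (Hsp90b1, evm_TU_Chr5_577, chromosome 5 from 18231158 to 18248503, 17 exons), the HSP90 of the ER, measured 64.9, 57.8 and 48.7 FPKM in the control and 412, 359.8 and 453 FPKM in warm water. In both genes the groups were separate and the 3 warmed libraries were close together. PDIA4 rose by 3.19 (SE 0.42, limma adjusted p = 0.0125) and endoplasmin by 2.82 (SE 0.40, adjusted p = 0.0191) on the log2 scale.

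BiP (HSPA5, evm_TU_Chr15_578), the HSP70 of the ER lumen, had the highest level in warm water among the named ER chaperones, at 578, 692 and 515 FPKM against 78.3, 70.1 and 60.2 FPKM in the control. It missed the threshold in the main fit (log2 3.08, SE 0.57, limma adjusted p = 0.0788) and passed without the combined libraries (SE 0.37, adjusted p = 0.0128), which themselves ranged from 213 to 1292 FPKM. PDIA6 (evm_TU_Chr4_1002), another disulfide isomerase, behaved likewise, with 17.5, 26.7 and 45.7 FPKM in the control and 143, 257 and 191 FPKM in warm water (log2 2.74, adjusted p = 0.207 in the main fit and 0.0275 without the combined libraries). MESD (evm_TU_Chr10_621), an ER chaperone of receptor proteins, measured 2.03, 2.99 and 3.99 FPKM in the control and 11.1, 16.2 and 16.8 FPKM in warm water (adjusted p = 0.143 and 0.0467). It was picked after its values were seen, as was STIP1 further on.

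Across the ER lumen list of 37 tested chaperones and folding enzymes, 4 rose in the main fit, 0 fell, and 6 passed upwards without the combined libraries. All 3 warmed libraries lay above all 3 controls for 24 of the 37, where 1073 of all models tested (6.87%) did so, and below them for 1, where 1130 of all models (7.24%) did so. The median log2 difference was 0.99, against -0.01 over all models. The exception was a cyclophilin B model (Ppib), whose difference was negative with groups apart. The abundant disulfide isomerase pdi-2 (evm_TU_Chr8_500) had overlapping groups, at 256, 240.4 and 449 FPKM in the control and 456, 255 and 492 FPKM in warm water. Summed over the list, the level was 943 to 1209 FPKM in the controls and 3142 to 3479 FPKM in the warmed libraries.

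**Figure D2:**
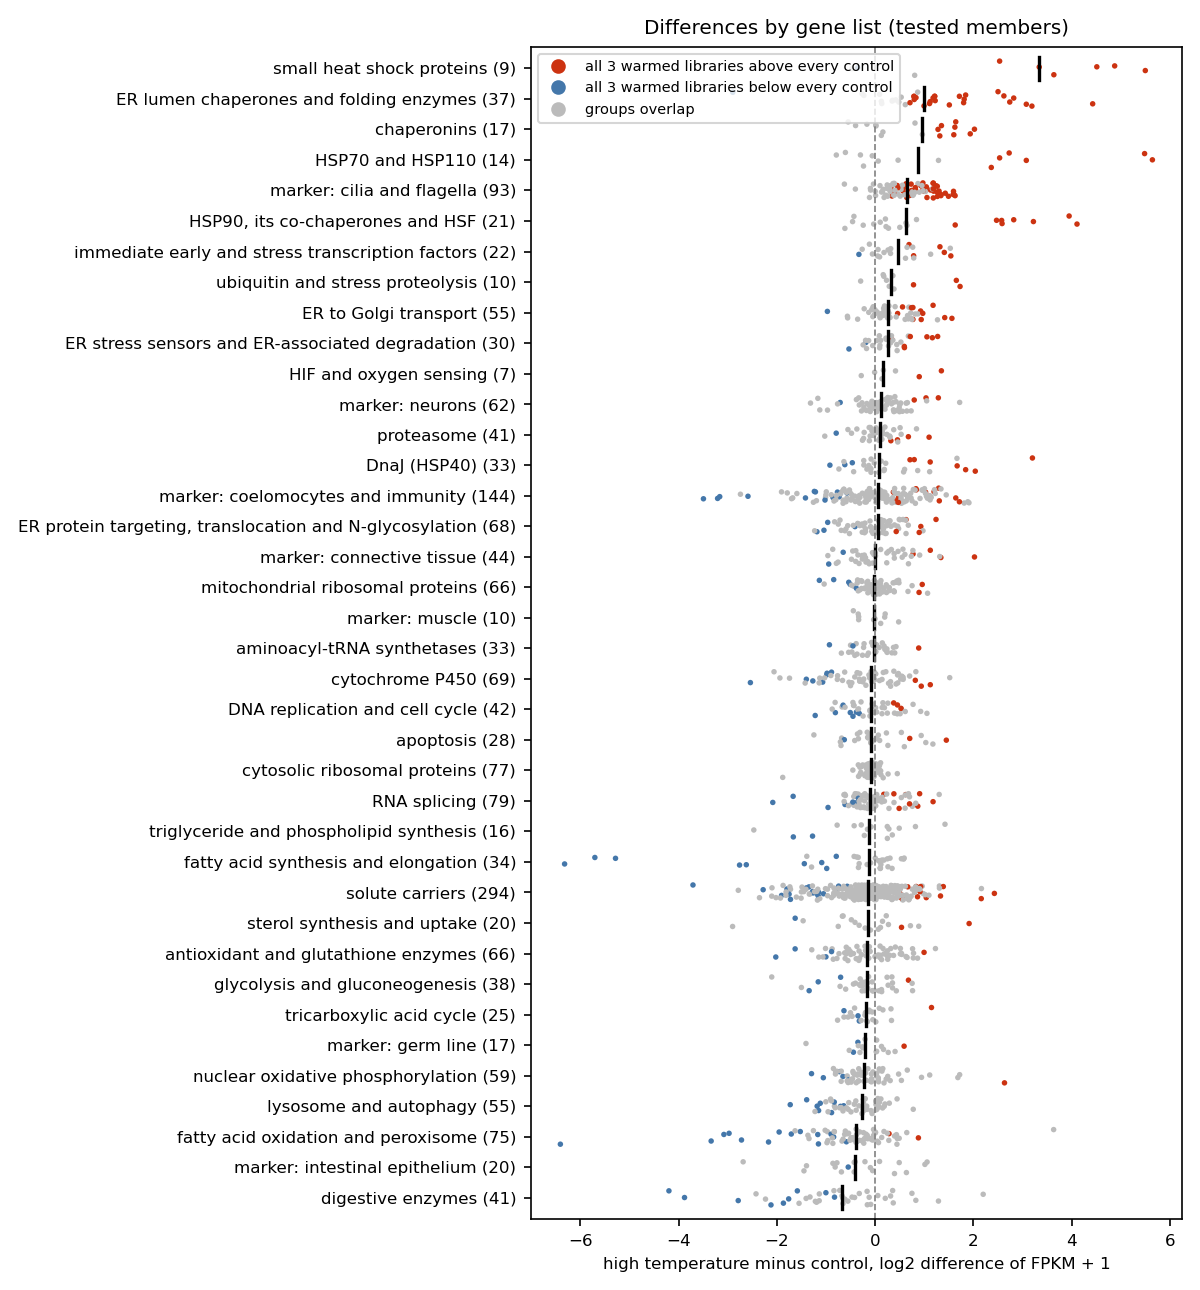
Log2 difference of FPKM + 1, high temperature minus control, for the tested members of each gene list (number in brackets), with a black bar at the list median and a dashed line at the median of all models. Chaperone lists and cilia markers lie to the right, with medians of 3.34 for small heat shock proteins and 0.99 for the ER lumen, and digestive enzymes (-0.67) and fatty acid oxidation (-0.39) to the left.

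In the cytosol, HSP90-beta (hsp90ab1, evm_TU_Chr2_1347, chromosome 2 from 41433949 to 41444906, 13 exons) measured 49.8, 72.1 and 79.3 FPKM in the control and 773, 2455 and 802 FPKM in warm water. High temperature 2 stood far above the other warmed libraries, all of which lay above every control. The gene rose by 4.11 on the log2 scale (SE 0.54, limma adjusted p = 0.0125). AHSA1 (evm_TU_Chr2_1062, chromosome 2 from 32242578 to 32254826, 10 exons), which stimulates the ATPase of HSP90, measured 4.46, 5.21 and 3.59 FPKM in the control and 80.8, 111 and 61.5 FPKM in warm water. The groups did not overlap, and it rose by 3.95 (SE 0.52, limma adjusted p = 0.0125).

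Other HSP90 partners passed only in the fit without the combined libraries. SUGT1 (evm_TU_Chr13_186), which links HSP90 to ubiquitin ligases, measured 13, 7.92 and 10.2 FPKM in the control and 58.0, 106 and 46.7 FPKM in warm water (log2 2.58, limma adjusted p = 0.0788 in the main fit and 0.026 without the combined libraries). Cdc37 (evm_TU_Chr18_68), which delivers kinases to HSP90, measured 12.3, 14.3 and 33.3 FPKM against 94.8, 132 and 115 FPKM (adjusted p = 0.2 and 0.032). STIP1 (evm_TU_Chr2_945), which bridges HSP70 and HSP90, measured 14, 11.9 and 13.6 FPKM against 55.1, 127 and 65.9 FPKM (adjusted p = 0.292 and 0.026). In each of these genes the groups did not overlap and the highest library was high temperature 2. Chordc1 (evm_TU_Chr19_482), another HSP90 partner, passed neither fit, with 28.1, 136 and 37.2 FPKM in warm water against 5.04, 2.52 and 7.81 FPKM.

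The list of HSP90, its co-chaperones and HSF held 21 tested genes, with endoplasmin also counted here. Of these 3 rose, 6 passed upwards without the combined libraries, and 8 (38.1%, against 6.87% of all models) had all warmed libraries above all controls. None had all warmed libraries below the controls, and the median difference was 0.63. The transcription factor HSF1 itself is in the list and its difference was 0.10, on the log2 scale, from the model hsf1, with overlapping groups.

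In the HSP70 family, a model matched to the constitutive HSPA8 (evm_TU_Chr10_660) was the most abundant member. It measured 202, 198 and 148 FPKM in the control and 1096, 1111 and 672 FPKM in warm water. The groups were well apart, and the model missed the threshold in the main fit (log2 2.36, SE 0.54, limma adjusted p = 0.2) and passed without the combined libraries (adjusted p = 0.0495). The other HSPA8 models had overlapping groups, with log2 differences of 1.29 (evm_TU_Chr10_671), -0.79 (evm_TU_Chr22_442) and -0.24 (evm_TU_Chr22_441). A model matched to the sea urchin gene HSP70IV (evm_TU_Chr10_597, chromosome 10 from 19802927 to 19809514) measured 3.68, 0.970 and 0.713 FPKM in the control and 13.5, 18.5 and 15.3 FPKM in warm water (adjusted p = 0.0694 and 0.0334). HSP110 (evm_TU_Chr13_519), the exchange factor of HSP70, measured 10.4, 17.1 and 19.8 FPKM against 58.4, 144 and 95.9 FPKM (adjusted p = 0.0788 and 0.0336).

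Another pair of HSP70IV models on chromosome 2 went from almost nothing to high and very unequal levels. The first, evm_TU_Chr2_481, measured 0.390, 2.46 and 1.2 FPKM in the control and 25.9, 482 and 100.1 FPKM in warm water. The second, evm_TU_Chr2_501, measured 0.449, 1.33 and 0.605 FPKM in the control and 19, 429.7 and 55.1 FPKM in warm water. Their groups did not overlap, with high temperature 2 many times above high temperature 1, and neither passed either fit (log2 5.64 and 5.48, limma adjusted p = 0.0788 and 0.115 in the main fit, 0.0786 and 0.118 without the combined libraries). The sources used here do not say how reads shared by near-identical copies were assigned, so HSP70 and small heat shock models are uncertain as single genes. Of 14 HSP70 and HSP110 genes tested, 0 rose in the main fit and 4 passed upwards without the combined libraries, where 0.128% of all models did. All warmed libraries lay above all controls in 6 (42.9%, against 6.87% of all models) and below them in 0 (7.24% of all models), with a median of 0.88. BiP, also counted in the ER lumen list, is among the 4 and among the 6.

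Small heat shock proteins differed widely between warmed animals. The hsp-16.41 model (evm_TU_Chr13_565) measured 0.473, 4.73 and 1.89 FPKM in the control and 78.3, 479 and 58.0 FPKM in warm water (log2 5.5, SE 1.03, limma adjusted p = 0.0839 in the main fit and 0.026 without the combined libraries). The hspb1 model (evm_TU_Chr17_460) measured 0, 0.582 and 0.896 FPKM against 6.73, 414 and 22.6 FPKM, and passed neither fit (adjusted p = 0.372 and 0.29). An alpha-crystallin model (CRYAA, evm_TU_Chr17_461) was already high in control 2, at 45.7 FPKM against 1.31 and 4.01 in the other controls, and measured 72, 1013 and 85.5 FPKM in warm water. Each of these 3 models lacked overlap between groups and was highest in high temperature 2. Of the 9 tested members, 0 rose in the main fit and 2 passed without the combined libraries, of which only hsp-16.41 is a small heat shock protein and the other is HSP110. Both HSP110 and HSPB11, a protein of cilia transport, were caught by the name pattern and are not small heat shock proteins.

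**Figure D3:**
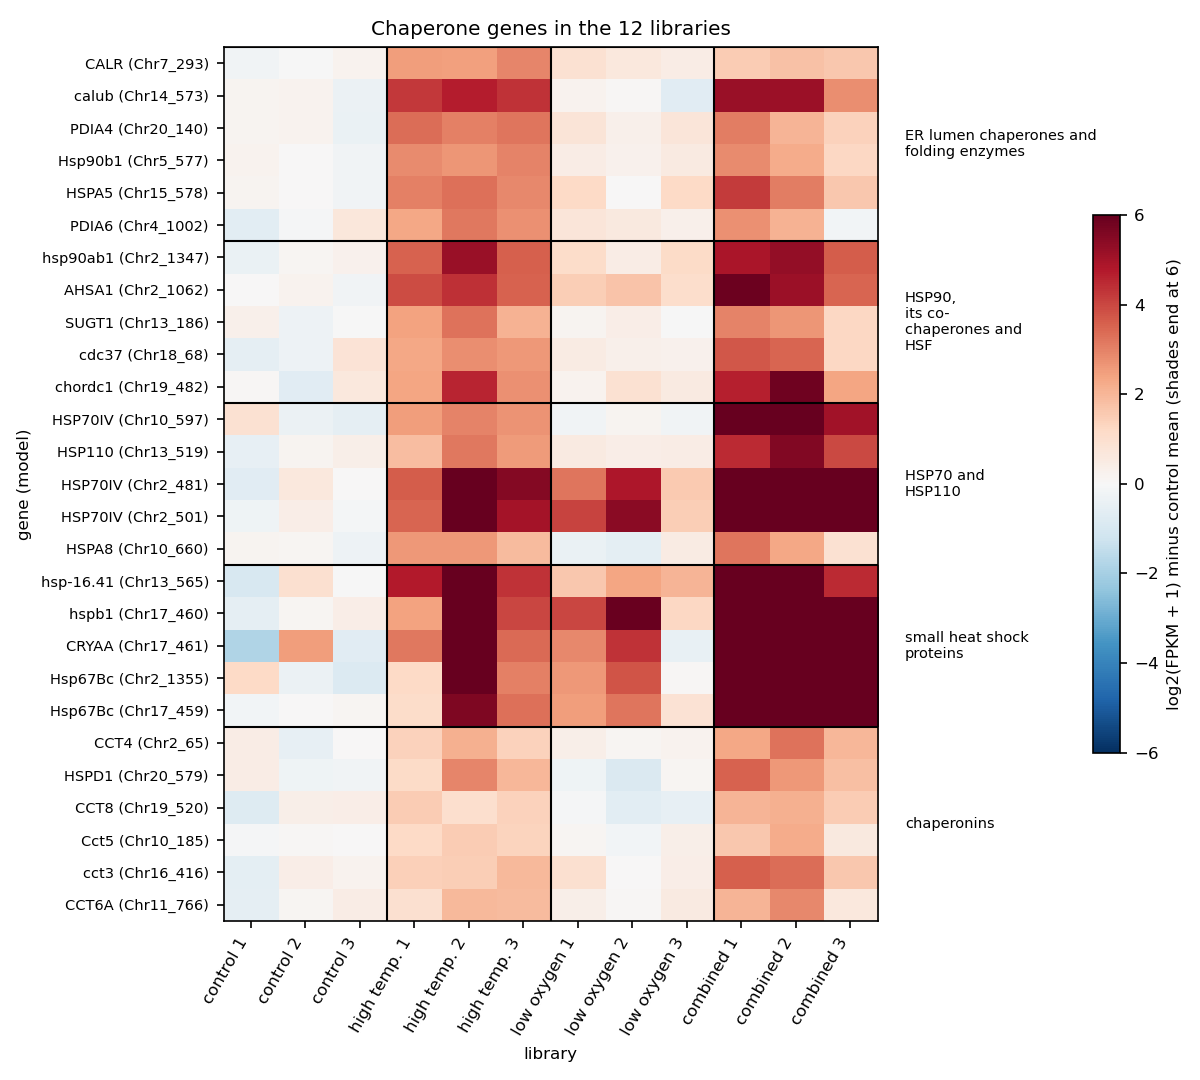
Colour shows log2(FPKM + 1) minus the control mean for the chaperone genes named by rule (rows, by list) in the 12 libraries (columns), with shades ending at 6. ER genes are of similar shade in the 3 warmed libraries, while small heat shock models and the HSP70IV models of chromosome 2 are darkest, among the warmed libraries, in high temperature 2 and are also raised in some low oxygen libraries.

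The warmed libraries carried ER chaperones more evenly than the other chaperones, a description chosen after the values were seen. Of the 24 ER lumen genes with all warmed libraries above all controls, the highest library was high temperature 1 in 6, high temperature 2 in 6 and high temperature 3 in 12, and the median coefficient of variation across warmed libraries was 0.198. The HSP90, HSP70 and small heat shock lists share members with each other and with the ER lumen list, so each gene was counted once and ER lumen genes such as BiP and endoplasmin were taken out. Of the 41 genes left, 17 had all warmed libraries above all controls, and high temperature 2 was the highest library in all 17 (median coefficient of variation 0.891). These genes share their libraries, so the counts describe 1 library and not a condition. List by list, with shared members kept, the median coefficient of variation was 0.458 for HSP90, 0.346 for HSP70 and 1.336 for small heat shock genes. The lists left out of this count were more even, at 0.215 for DnaJ, which shares members with the ER lumen list, and 0.335 for chaperonins.

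No member of the list of chaperonins, the ring-shaped folding machines, passed either fit. HSP60 of the mitochondrion (HSPD1, evm_TU_Chr20_579) measured 72, 43.4 and 45.8 FPKM in the control and 118, 407 and 208 FPKM in warm water (log2 2.02, SE 0.54, limma adjusted p = 0.292). CCT5 (evm_TU_Chr10_185), a subunit of the cytosolic ring, was even within groups, with 27, 29 and 28.1 FPKM against 65.1, 82.0 and 72.7 FPKM (log2 1.35, SE 0.41, adjusted p = 0.443). In both, the groups did not overlap. Of 17 tested members 8 (47.1%, against 6.87% of all models) had all warmed libraries above all controls and 0 below (7.24% of all models), with a median of 0.96. TCP11L1 in this list is a stray. The list also holds the prefoldin subunits (the PFDN models and VBP1), which are not ring chaperonins. Every prefoldin subunit had overlapping groups, so the share and median above describe a mixed list.

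Among 33 DnaJ genes, the median difference was 0.07, and 7 (21.2%, against 6.87% of all models) had all warmed libraries above all controls. The 3 with all warmed libraries below (9.09%) were near the 7.24% of all models. DNAJA1 (evm_TU_Chr10_295), a cytosolic partner of HSP70, measured 4.87, 6.56 and 4.94 FPKM in the control and 37.4, 126 and 41.1 FPKM in warm water. Every warmed library lay above every control, and the gene passed only without the combined libraries (log2 3.2, limma adjusted p = 0.106 in the main fit and 0.026). Another DNAJA1 model, evm_TU_Chr10_296, had overlapping groups (log2 -0.08). DNAJC3 (evm_TU_Chr21_698), an ER partner of BiP, measured 3.56, 7.05 and 8.19 FPKM against 23.5, 19.3 and 30.2 FPKM (log2 1.84, adjusted p = 0.509 and 0.11). Dnajc9 (evm_TU_Chr10_13), a histone chaperone partner, went the other way without a call, with 7.18, 8.88 and 8.44 FPKM against 4.46, 2.92 and 4.27 FPKM.

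Steps next to folding in the secretory pathway had smaller differences and no gene past the threshold in either fit. XBP1 (evm_TU_Chr11_797), a transcription factor of the unfolded protein response, measured 92.1, 125 and 137 FPKM in the control and 367, 226 and 273 FPKM in warm water (log2 1.27, SE 0.52, limma adjusted p = 0.663). The sensor kinase PERK (Eif2ak3, evm_TU_Chr17_345) measured 2.42, 3.31 and 3.33 FPKM against 6.72, 6.94 and 8.34 FPKM. Both had groups that did not overlap. The other sensors, ATF6 and IRE1 (ERN1), named after their values were seen, had overlapping groups (log2 0.09 and 0.23). Of 30 genes of ER stress sensing and ER-associated degradation, 7 (23.3%) had all warmed libraries higher and 2 (6.67%) all lower, against 6.87% and 7.24% of all models (median 0.26). Of 55 genes of ER to Golgi transport, 11 (20%) were higher and 1 (1.82%) lower in this sense (median 0.26). Among 68 models of targeting, translocation and N-glycosylation the counts of 5 and 4 (7.35% and 5.88%) were near the shares of all models (median 0.05). Many of the 68 are assembled models matched to the same symbol, SRP68. All of the lower models except SRP14 are of this kind and none of the higher ones is, so these shares lean on a repeated symbol. Lipase maturation factor 1 (LMF1, evm_TU_Chr8_324), which is in none of these lists, measured 0.582, 1.48 and 2 FPKM in the control and 8.75, 10.4 and 12.1 FPKM in warm water (log2 2.32, adjusted p = 0.0908 in the main fit and 0.0386 without the combined libraries).

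No stress transcription factor passed either fit. KLF2 (evm_TU_Chr7_263), a zinc finger factor, measured 52.9, 64.9 and 44 FPKM in the control and 162, 304 and 78.3 FPKM in warm water. CEBPB (evm_TU_Chr9_946), a factor of acute stress responses, measured 148, 178 and 124 FPKM against 421, 363 and 337 FPKM. In both genes the groups did not overlap, with limma adjusted p = 0.457 and 0.542. In the list of 22 such factors 5 (22.7%) had all warmed libraries higher and 1 (4.55%) lower, against 6.87% and 7.24% of all models (median 0.47). HIF-1-alpha (hif1a, evm_TU_Chr2_708), which controls the response to low oxygen, measured 163, 122 and 60.5 FPKM against 178, 239.6 and 184 FPKM (log2 0.90, adjusted p = 0.841).

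An unnamed model on chromosome 21 (evm_TU_Chr21_398, 11833946 to 11834801, 2 exons) was listed at 0 in the control and low oxygen libraries and at 7.21, 29.8 and 13.1 FPKM in warm water. It rested on 138 recovered fragments over the 3 warmed libraries. Its fitted difference of 3.93 (SE 0.57, limma adjusted p = 0.0206) depends on the added 1 FPKM and is no bound on the fold. It lost its call in 10 of 23 alternative settings, among them the test on recovered fragments (adjusted p = 0.224).

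The 4 models that fell in the main fit are unnamed assembled models, each lying beside a named gene on the opposite strand. The protocols name no strand-marking step, so reads of a model and of an overlapping or adjoining gene cannot be told apart. The model next to FASN (chromosome 13 from 1553338 to 1554511) lies 193 bases from this gene of fatty acid synthase and measured 124, 282 and 132 FPKM in the control and 0, 2.75 and 0.361 FPKM in warm water. The next (chromosome 8 from 3374740 to 3377448) lies 496 bases from the fatty acid elongase ELOVL6 and measured 17.6, 8.13 and 22 FPKM against 0, 0.289 and 0 FPKM. Groups were wide apart in both. The third (chromosome 2 from 21613336 to 21634286) overlaps a model of Eci1, an isomerase of fatty acid breakdown, and measured 4.33, 8.5 and 13.8 FPKM against 0, 0.0677 and 0 FPKM. The fourth (chromosome 2 from 42195405 to 42198379) ends 1 base from the organic cation transporter Slc22a3 and measured 15.8, 8.85 and 31.5 FPKM against 0.113, 0.102 and 0 FPKM. The named partner was lower in every warmed library than in any control in each of the 4 cases. The legumain gene Lgmn, 1232 bases from the fourth model and on its strand, had overlapping groups, at 1094, 737 and 338 FPKM in the control and 581, 403 and 599 FPKM in warm water. The models fell by 6.60 (SE 0.99, limma adjusted p = 0.0284), by 3.86 (SE 0.51, adjusted p = 0.0125), by 3.15 (SE 0.43, adjusted p = 0.016) and by 4.03 (SE 0.50, adjusted p = 0.0125), on the log2 scale and in that order.

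In fatty acid synthesis, 0 of 34 tested genes passed in the main fit and 4 passed downwards without the combined libraries. FASN (evm_TU_Chr13_41, chromosome 13 from 1554705 to 1575109, 25 exons), which builds palmitate, measured 22.8, 327 and 244 FPKM in the control and 1.28, 1.74 and 1.17 FPKM in warm water. Stearoyl-CoA desaturase 5 (SCD5, evm_TU_Chr15_727), which adds a double bond, measured 21.3, 166 and 375 FPKM against 0.109, 1.48 and 0 FPKM. Control 1 was much lower than the other controls in both genes, and still above every warmed library. The elongase ELOVL6 (evm_TU_Chr8_125) measured 36.4, 32.8 and 155 FPKM in the control and 0, 2.35 and 0 FPKM in warm water. ATP-citrate synthase (ACLY, evm_TU_Chr20_7), which supplies the acetyl units, measured 45.8, 60.6 and 154 FPKM against 12.2, 12.3 and 9.88 FPKM. The limma adjusted p went from 0.0694 to 0.032 for FASN, from 0.154 to 0.0467 for SCD5, from 0.0908 to 0.026 for ELOVL6 and from 0.0788 to 0.0495 for ACLY when the combined libraries were left out. The other tested models of ACLY and ELOVL6 had overlapping groups. Their log2 differences were 0.10 for ACLY (evm_TU_Chr15_497) and -0.38 to 0.18 for ELOVL6.

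Acetyl-CoA carboxylase (ACAC, evm_TU_Chr13_553), the committed step of the pathway, measured 10.2, 14.2 and 28.8 FPKM in the control and 0.764, 1.73 and 2.39 FPKM in warm water (log2 -2.76, SE 0.69, limma adjusted p = 0.245 and 0.0549). Its groups did not overlap. Of the 34 genes 9 (26.5%, against 7.24% of all models) had all warmed libraries below all controls and 0 above (6.87% of all models), while the median of the list was -0.13, so the members far below were a minority.

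**Figure D4:**
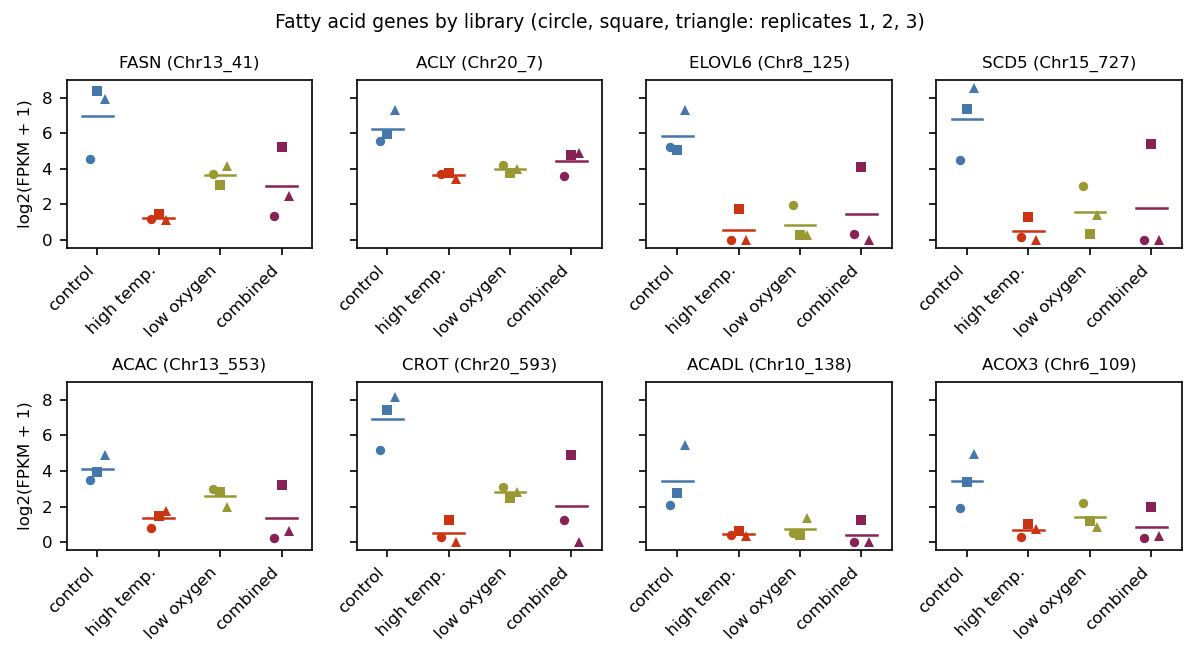
Levels of 8 fatty acid genes, as log2(FPKM + 1), in all 12 libraries by group, with a bar at each group's mean. Each symbol is shown by its model with the smallest p, and other models of a symbol can differ. All warmed libraries lie below all controls in each gene, controls spread widely, and low oxygen libraries lie below the control as well, as in ELOVL6 at 2.86, 0.192 and 0.192 FPKM.

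In fatty acid breakdown, 0 of 75 tested genes passed in the main fit and 1 passed downwards without the combined libraries. This was CROT (evm_TU_Chr20_593, chromosome 20 from 19878324 to 19887522, 15 exons), which exports shortened fatty acids from peroxisomes. It measured 34.7, 173 and 288 FPKM in the control and 0.237, 1.40 and 0 FPKM in warm water. Its groups were the farthest apart of the list, and it passed only without the combined libraries (log2 -6.40, SE 1.05, limma adjusted p = 0.06 in the main fit and 0.00703). The dehydrogenase ACADL (evm_TU_Chr10_138) measured 3.25, 5.79 and 43.1 FPKM against 0.350, 0.529 and 0.277 FPKM, and the peroxisomal oxidase ACOX3 (evm_TU_Chr6_109) measured 2.77, 9.53 and 30.0 FPKM against 0.234, 1.06 and 0.695 FPKM. Neither passed a fit (adjusted p = 0.226 and 0.268 in the main fit). Another ACADL model, evm_TU_Chr10_271, went the other way with overlapping groups (log2 3.63, limma adjusted p = 0.65 in the main fit). Every other model of this name in the list had a negative difference. In the list of 75 genes of fatty acid oxidation and the peroxisome, 15 (20%, against 7.24% of all models) had all warmed libraries below all controls and 2 (2.67%, against 6.87%) above, and the median was -0.39.

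In sterol metabolism, mevalonate kinase (MVK, evm_TU_Chr6_363), an early enzyme of sterol synthesis, measured 0.203, 0.280 and 0.488 FPKM in the control and 3.02, 6.91 and 2.84 FPKM in warm water. Its groups did not overlap, and it passed no threshold (log2 1.91, limma adjusted p = 0.235). The median difference of the 20 tested sterol genes was -0.15.

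No digestive enzyme passed either fit, and in several the mean of the control was set by 1 library. Carboxypeptidase A1 (CPA1, evm_TU_Chr2_1288) measured 3.07, 10.1 and 310.2 FPKM in the control and 0.132, 1.02 and 0 FPKM in warm water (limma adjusted p = 0.457). Pancreatic lipase (PNLIP, evm_TU_Chr7_883) measured 0.363, 1.67 and 102 FPKM against 0, 0.142 and 0 FPKM (adjusted p = 0.688). Control 3 was far above the other controls in both genes, although all controls exceeded all warmed libraries. The sum over the 41 listed genes was 485, 500.0 and 2424 FPKM in the control and 194, 689 and 486 FPKM in warm water, so the sums of the groups overlapped. Of the 41, 9 (21.95%, against 7.24% of all models) had all warmed libraries lower and 0 higher (median -0.67). The pattern also caught models of GPI-anchor processing (Pgap1, pgap2, pgap3 and PGAP4), serpins, pgam5 and ctr9, which are not digestive enzymes.

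Control 3 was the highest control in 12 of the 15 lower genes of fatty acid oxidation, 7 of the 9 lower digestive genes and 5 of the 9 lower genes of fatty acid synthesis, with control 2 highest in the other 4 of the last group. Without control 3 the list median went from -0.13 to 0.03 in fatty acid synthesis, a change of sign, from -0.39 to -0.22 in fatty acid oxidation and from -0.67 to -0.31 in digestive enzymes. In the genes named here controls 1 and 2 also lay above every warmed library in each of FASN, SCD5, ELOVL6, ACLY, ACAC, CROT, CPA1 and PNLIP.

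Several metabolic enzymes outside these lists were low in all warmed libraries. Beta-D-xylosidase 1 (BXL1, evm_TU_Chr16_774, named after a plant cell wall enzyme) measured 24.7, 24.6 and 40.2 FPKM in the control and 6.55, 5.78 and 2.73 FPKM in warm water (log2 -2.38, limma adjusted p = 0.0694 in the main fit and 0.0495 without the combined libraries). The reductase DHRS4 (evm_TU_Chr9_100) measured 107, 218 and 476 FPKM against 15.9, 12.5 and 3.73 FPKM (adjusted p = 0.0902 and 0.026). The groups were apart in both. The sulfotransferase SULT1B1 (evm_TU_Chr12_549), which conjugates small molecules, measured 6.21, 3.24 and 4.27 FPKM against 0, 0.571 and 0 FPKM (adjusted p = 0.0694 and 0.0334). The sterol-binding receptor Tmem97 (evm_TU_Chr11_386) measured 3.94, 4.51 and 5.29 FPKM against 0, 0.324 and 0 FPKM (adjusted p = 0.0694 and 0.0418). These last levels rest on few fragments, 4 over the warmed libraries in each gene.

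RNA-binding proteins included genes with even levels inside each group. The helicase DDX5 (evm_TU_Chr8_877), which acts in splicing and transcription, measured 109.99, 87.6 and 76.5 FPKM in the control and 30.4, 20.2 and 29.6 FPKM in warm water (log2 -1.74, SE 0.32, limma adjusted p = 0.0788 in the main fit and 0.0549 without the combined libraries). The splicing factor HNRNPA1 (evm_TU_Chr10_301) measured 261, 247 and 179.5 FPKM against 49.7, 83.7 and 34.9 FPKM, and SRSF6 (evm_TU_Chr2_883) measured 114.4, 77.3 and 60.7 FPKM against 23.5, 29.9 and 21.9 FPKM. In all 3 genes the groups did not overlap. TRA2B (evm_TU_Chr20_197), another splicing factor, lay higher, with 67.5, 49.3 and 59.7 FPKM against 76.5, 150.4 and 107 FPKM. Of 79 splicing genes, 8 had all warmed libraries higher and 7 lower, against 6.87% and 7.24% over all models.

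Among 294 solute carriers 14 had all warmed libraries higher and 19 lower, also near the shares over all models. Slc22a3 (evm_TU_Chr2_1377), an organic cation transporter, measured 2.17, 20.8 and 89.9 FPKM in the control and 0.747, 0.621 and 0 FPKM in warm water (limma adjusted p = 0.221). The zinc importer ZIP4 (Slc39a4, evm_TU_Chr1_164) measured 9.54, 12.8 and 4.63 FPKM against 68.6, 29.1 and 59.7 FPKM (adjusted p = 0.434). The groups did not overlap in either gene. Of 69 cytochrome P450 genes, 3 (4.35%) were higher and 7 (10.1%) lower in this sense, near the 6.87% and 7.24% of all models. One Cyp1a1 model, evm_TU_Chr9_129, measured 11.8, 41.1 and 6.55 FPKM against 1.18, 2.47 and 1.74 FPKM, while another, evm_TU_Chr8_59, had overlapping groups.

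No lysosomal gene passed either fit, and 9 of 55 (16.4%, against 7.24% of all models) were below all controls in all warmed libraries and 0 above (median -0.27). Arylsulfatase A (Arsa, evm_TU_Chr5_119), which breaks down sulfatides, measured 42.9, 53.0 and 47.8 FPKM in the control and 19, 12.1 and 11.2 FPKM in warm water (log2 -1.73, limma adjusted p = 0.235). The 77 cytosolic ribosomal protein genes had 0 members with separate groups in either direction, against 6.87% and 7.24% of all models, and a median of -0.09. The 41 proteasome genes had a median of 0.09, with 4 (9.76%) higher and 1 (2.44%) lower in all warmed libraries, against 6.87% and 7.24% of all models.

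Markers of ciliated cells moved with the groups. Of the 93 tested cilia and flagella genes, 87 had a positive difference, against 49.6% of all models. All warmed libraries lay above all controls in 44 (47.3%, against 6.87% of all models) and below them in 0 (7.24% of all models). The median was 0.64, and 0 passed either fit. Their summed level was 342, 293 and 161 FPKM in the control and 618, 404 and 436 FPKM in warm water, and no cilia marker was at 0 in any of the 6 libraries. CFAP20 (evm_TU_Chr9_780), a protein of the ciliary shaft, measured 12.5, 9 and 4.46 FPKM against 44.4, 22.4 and 18.3 FPKM (limma adjusted p = 0.609). Control 3 was the lowest and high temperature 1 the highest library in the sum and in CFAP20. The part of cell makeup in the chaperone and lipid differences was not tested.

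**Figure D5:**
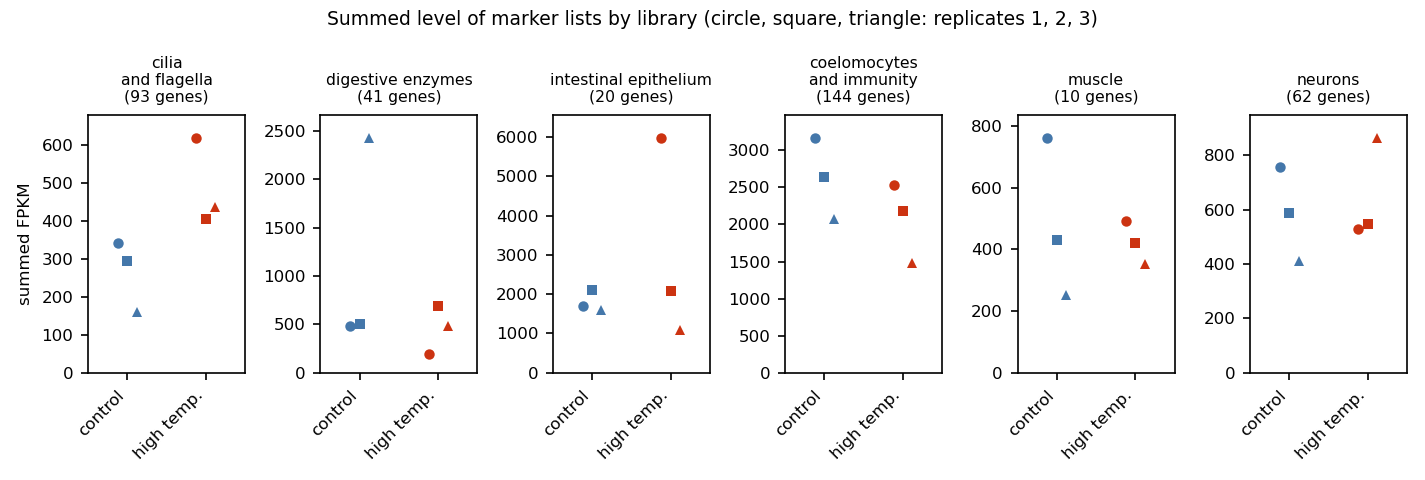
Summed FPKM of marker lists in each control and high temperature library, with axes that start at 0. The cilia sums are separate between groups (161 to 342 against 404 to 618 FPKM), while the other 5 lists overlap and single libraries stand out, such as control 3 for digestive enzymes at 2424 FPKM.

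Markers of the gut were present in all 6 libraries, with 1 of 20 tested epithelial markers at 0 in high temperature 3 alone. The intestinal epithelium list summed to 1598 to 2116 FPKM in the control and 1100 to 5968 FPKM in warm water, and most of this sum was apolipoprotein B (APOB, evm_TU_Chr7_231), at 1538, 1936 and 1336 FPKM against 5758, 1923 and 996 FPKM. Of the 20 epithelial markers only 6 had a positive difference, and their median was -0.42; their part in the lower lipid and digestive levels was not tested. The epithelial sums overlapped, and so did those of muscle (253 to 761 against 351 to 494 FPKM), connective tissue (1051 to 1814 against 1341 to 1633 FPKM), neurons (410 to 758 against 530.3 to 863 FPKM) and coelomocytes (2080 to 3163 against 1483 to 2526 FPKM). Within the coelomocyte and immunity list of 144 genes 13 (9.03%) had all warmed libraries higher and 12 (8.33%) lower, near the 6.87% and 7.24% of all models. An assembled model matched to fibrinogen-like protein A (chromosome 2 from 7767706 to 7776821) measured 46.2, 31.9 and 71.6 FPKM in the control and 0.802, 12.4 and 5.52 FPKM in warm water.

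Low oxygen libraries show which of these genes differed from the control without warming. The high temperature and low oxygen comparisons share the 3 control libraries, so their values are set side by side only. FASN measured 12, 7.47 and 16.5 FPKM in low oxygen (log2 -3.32 against control, where warm water gave -5.70), CROT 7.63, 4.69 and 6.09 FPKM (-4.11 and -6.40), and SCD5 7.23, 0.242 and 1.70 FPKM (-5.21 and -6.32). These genes were named for a small p in warm water, a choice that leans to larger differences there. The list median of fatty acid oxidation was -0.53 in low oxygen and -0.39 in warm water. Digestive enzymes gave -0.53 and -0.67, and fatty acid synthesis 0.005 and -0.13. Low oxygen levels of ER chaperones lay nearer the control, as for endoplasmin at 78.9, 67.9 and 82.8 FPKM (log2 0.42, where warm water gave 2.82) and BiP at 159.8, 70.9 and 160.1 FPKM (0.81 and 3.08). The HSP70IV model evm_TU_Chr2_481 was above the control in every low oxygen library too, at 19.4, 61.5 and 5.62 FPKM, as was the hspb1 model evm_TU_Chr17_460, at 22.1, 86.8 and 2.43 FPKM. In both, low oxygen and warmed libraries overlapped. In the direct test of high temperature against low oxygen the threshold was missed by FASN (log2 -2.39, limma adjusted p = 0.975), ELOVL6 (-0.24, adjusted p = 0.993), endoplasmin (2.40, adjusted p = 0.125) or HSP90-beta (3.2, adjusted p = 0.125). Besides calumenin-B, no model passed this test, so these misses do not show that the levels were alike.

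Combined libraries, at the same temperature but with less oxygen, were tested against warm water alone, and 32 models rose (0.205%) and 2 fell (0.0128%). Of the 32, 13 carried a symbol and 4 belonged to the HSP90, HSP70, DnaJ, small heat shock and chaperonin lists. These hold 86 tested genes outside the ER lumen list, among them mitochondrial ones such as HSPD1. List medians were also higher in the combined group for cytosolic ribosomal proteins (0.95) and for the markers of muscle (1.17) and connective tissue (0.71), whose part in the calls was not tested. DNAJB4 (evm_TU_Chr7_340), a cytosolic partner of HSP70, measured 27.9, 94.0 and 16.4 FPKM in warm water and 891, 1773 and 962 FPKM in the combined group (log2 4.99, SE 0.60, limma adjusted p = 0.00266), where its control level was 16.8, 10.4 and 6.32 FPKM. HSP70IV (evm_TU_Chr10_597) measured 246, 175 and 80.6 FPKM in the combined group, above all warmed libraries (log2 3.2, SE 0.48, adjusted p = 0.012). A small heat shock model, Hsp67Bc (evm_TU_Chr17_459), measured 1.38, 53.7 and 10.1 FPKM in warm water and 1957, 11505 and 431 FPKM in the combined group (log2 7.56, SE 1.18, adjusted p = 0.0164). The ER chaperones that rose in warm water did not pass in this test: the differences were -0.06 for calumenin-B, -0.72 for endoplasmin, -1.03 for PDIA4 and -0.99 for calreticulin, with adjusted p from 0.518 to 0.99. Fitted on the warm and combined libraries alone, 2 models rose, and without combined 3, 65 rose. The interaction of temperature and oxygen passed with a positive sign for 8 models (0.0512%) and with a negative sign for 0.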

How the data were processed

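RNA of 12 intestine libraries was measured, 3 in each of 4 groups. Per the labels' protocols, each library came from the mRNA of 1 individual, with random priming of the cDNA. The authors deposited 1 table of FPKM per gene model, per the file headers. The sources used here name no aligner, counter, genome build or strand setting. Positions are those of the table, counted from 1, and exon numbers those of the deposited annotation. FPKM times model length gave whole multiples of 1 step per library for 100% of values (tolerance 1e-06), so fragments could be recovered. The library size within FPKM matched median-of-ratios scaling with 12900 genes, so the deposited values were already scaled between libraries. Intervals are not given for single libraries, and levels near 0 rest on few fragments.

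Values were analysed as log2(FPKM + 1), so fold changes of low genes are understated. Models with at least 1 FPKM in at least 3 libraries were kept. Group means were estimated from the 12 libraries together in limma 3.58.1 in R 4.3.3 (eBayes with a trend, two-sided), and the Benjamini-Hochberg adjustment ran over the 15615 models. Every adjusted p is from such a fit. For a single gene, an exact permutation test with 3 libraries per group cannot go below 0.1. Summaries and figures used Python 3.11.15, pandas 2.3.3, numpy 2.4.6 and matplotlib 3.10.9, and the fit was tested on simulated data.

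The comparison and the 38 lists, of which 7 are cell type markers, were chosen with earlier results of these data known. Lists match symbols or descriptions by pattern and are described by counts and medians with no list test. Genes were named if past the threshold, if among the 15 smallest p in each direction with separate groups and a symbol, or if among up to 6 smallest p of a list or its most abundant member. Alternatives were pseudocounts of 0.1 and 5, no filter and one at 5 FPKM, rescaling to equal totals, library weights, fits on fewer groups, a replicate block, voom on recovered fragments, and leaving out each library. One gene result is not reported here.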

Additional observations from a re-analysis of the deposited data

Results flagged for a closer look

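In 2 genes the difference made by warm water depended on oxygen, by the interaction term of the limma fit, which 8 of all models passed with a positive sign (0.0512%) and 0 with a negative one. The combined minus low oxygen difference exceeded the high temperature minus control difference by 5.861 for the unnamed model evm_TU_Chr21_398 (SE 0.80, adjusted p = 0.0181) and by 3.822 for SrpRalpha (evm_TU_Chr15_285, SE 0.53, adjusted p = 0.0181), on the log2 scale. The unnamed model was listed at 0 in control and low oxygen libraries, at 7.21, 29.8 and 13.1 FPKM in warm water and at 1801, 1045 and 371 FPKM in the combined group. SrpRalpha, a subunit of the receptor that brings ribosomes to the ER, measured 10.3, 12.5 and 12.7 FPKM in the control, 18.7, 16.7 and 40.1 FPKM in warm water, 13.5, 14.1 and 12.8 FPKM in low oxygen, and 306, 466 and 411 FPKM in the combined group. For the unnamed model both baselines are 0, so its value equals the combined minus high temperature difference, depends on the added 1 FPKM and is no bound on a fold. Both terms use the control, whose oxygen level is in doubt.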

How the results depend on the processing

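No named gene of the 35 followed by the first 2 parts of the naming rule changed direction in up to 23 alternatives each. This was largely fixed by the choice of genes with separate groups. Such genes keep their direction whenever a library is left out or the pseudocount changes. Of 800 such values, 623 stayed on their side of the threshold, 93 moved past it and 84 lost it. Of 874 list medians, 59 moved by more than their spread and 84 changed sign, among them fatty acid synthesis without control 3 (0.03). The medians of the ER lumen, HSP90, HSP70, small heat shock, chaperonin, fatty acid oxidation, digestive and cilia lists kept their sign in all 23 alternatives.

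For high temperature against control (7 rose, 4 fell), counts that rose moved to 71 with library weights, 4 with the compared groups alone, 20 without the combined group and 17 when values were also rescaled to equal totals. Counts that fell moved to 0 with a pseudocount of 0.1, 11 with a pseudocount of 5, 1 with the filter at 5 FPKM, 8 when rescaled, 134 with library weights, 2 with the compared groups alone, 16 without the combined group (also when rescaled) and 1 with voom. Library weights gave control 2 a weight of 5.46 against 0.673 and 0.648 for the other controls. Leaving out 1 library gave 0 to 7 that rose and 0 to 9 that fell, and, without the combined group, 9 to 12 (11, 9, 10, 11, 12 and 12) and 4 to 14 (14, 8, 13, 4, 14 and 5), in the order controls 1 to 3 and high temperature 1 to 3.

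For combined against high temperature (32 rose, 2 fell), 21 rose with a pseudocount of 0.1, 16 when rescaled and 2 with these groups alone. Counts that fell were 1 with the pseudocount of 0.1, 1 with the filter at 5 FPKM, 7 when rescaled, and 0 with library weights, with these groups alone and with voom. Leaving out 1 library gave 21 to 65 that rose and 0 to 6 that fell.

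Deviations from the group means were correlated between same-numbered control and high temperature libraries (r = 0.178, -0.135 and 0.0629 for numbers 1 to 3). Pairs of unlike number gave r from -0.238 to 0.157. So few values cannot decide whether equal numbers mark shared tanks or handling. With a replicate block 10 rose and 7 fell in warm water, and 41 rose and 2 fell in the combined comparison.

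With 3 libraries a group, these counts limit how firmly single calls can be read. The cause of each movement was not tested. The rescaling moved the median difference of all models from -0.01 to 0.02.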

Other observations

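Matrix genes were not described above. Collagen III (Col3a1, evm_TU_Chr15_199), a fibril collagen, measured 2.39, 4.53 and 1.38 FPKM in the control and 9.65, 12.1 and 20.4 FPKM in warm water. TIMP3 (evm_TU_Chr5_187), an inhibitor of matrix proteases, measured 14.9, 18.7 and 11.5 FPKM against 40.8, 24.2 and 58.8 FPKM, and P4ha1 (evm_TU_Chr22_11), which hydroxylates collagen chains in the ER, measured 22, 17.6 and 20.6 FPKM against 53.6, 57.7 and 46.5 FPKM. Groups did not overlap in these 3 genes and none passed the threshold. The circadian repressor Nfil3 (evm_TU_Chr7_42) was lower in all treated groups, at 6.03, 7.27 and 43.5 FPKM in the control, 0.557, 0.309 and 0.221 FPKM in warm water and 0.352, 0.252 and 0.275 FPKM in low oxygen (limma adjusted p = 0.0694 for warm water). BHMT (evm_TU_Chr19_417), which remethylates homocysteine with betaine, measured 47.1, 25 and 59.5 FPKM in the control and 0.607, 9.36 and 3.19 FPKM in warm water (adjusted p = 0.138).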
